A study of Mus musculus with 8 samples.

Results

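Interferon-stimulated genes were examined in primary aortic smooth muscle cells of mice given the actin-stabilising compound jasplakinolide. The set was a list of 39 genes, taken by gene name and chosen with earlier results of these data known. All are known for their induction by interferons. Of these, 36 had a probe set with a single gene symbol and are described, out of 19938 genes compared on the same arrays. The probe sets of Isg15 and Igtp also carry the name of another gene, and Ifi44 was not matched, so these 3 genes are not analysed here.

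All cells were of strain C57Bl6, at passage 3 to 4, and grew in DMEM plus 10% FCS over the 24 h of the experiment. Controls (4 Affymetrix arrays) were grown without the compound, and the treated group (4 arrays) with 100 nM jasplakinolide, a cyclic peptide from marine sponges that enters cells and stabilises actin filaments. No genetic alteration is named for either group, and whether replicates were independent cultures or animals is not stated in the labels. A p-value here thus reflects only how far these samples vary, and that variation may be technical.

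Type I interferons signal through a receptor made of Ifnar1 and Ifnar2, whose kinases Jak1 and Tyk2 activate transcription factors, Stat2 among them. Stat2 acts with Irf9 in a complex that binds the interferon-stimulated response element in target promoters. Interferon gamma uses another receptor and acts through the gamma activated site. Many targets restrict viruses, and most nucleated cells, vascular smooth muscle included, can mount the response. Some targets stay expressed at a basal level without infection.

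Both elements were searched in the promoters of the members, because the breadth of a member's variation between arrays is set beside them further on. The RefSeq promoter table (build GRCm38.p6) gives windows of 300 bases, from 250 before to 50 after an annotated start, and held 32 of the 39 listed genes. The core of the response element was searched as GAAANNGAAA on both strands (TTTCNNTTTC on the other), and the gamma activated site as TTCNNNGAA, which reads the same on both. A response element core lay in the window of 14 of the 32 genes (43.8%), against 3.99% of all 27025 genes in the table. A gamma activated site lay in 10 of the 32 (31.3%), against 9.55% of all genes. The windows of 4 members held both, and in Bst2 the matches shared bases. The stretches below are those of the 4 members with the widest spread between arrays among the genes in the table. Those of Irf1 and Psmb8 follow. With the probe sets used, these were the only 2 of 36 members whose control and treated arrays did not overlap, against 6.91% of all genes. Capitals mark each match.

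Rsad2 (chr12:26456548-26456587, minus strand): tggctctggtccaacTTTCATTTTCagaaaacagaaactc
Ifit1 (chr19:34640770-34640828, plus strand): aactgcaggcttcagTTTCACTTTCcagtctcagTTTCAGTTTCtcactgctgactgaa
Ifit3 (chr19:34583358-34583431, plus strand): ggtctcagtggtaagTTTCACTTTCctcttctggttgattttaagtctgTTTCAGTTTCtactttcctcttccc
Cxcl10 (chr5:92349078-92349117, minus strand): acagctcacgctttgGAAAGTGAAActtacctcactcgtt
Irf1 (chr11:53769909-53769947, plus strand): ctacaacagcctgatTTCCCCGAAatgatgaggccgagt
Psmb8 (chr17:34198083-34198121, plus strand): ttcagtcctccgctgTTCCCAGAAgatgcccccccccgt

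Ifit1 and Ifit3 each hold a pair of response element cores that differ only in the spacer bases, and in both genes the pair reads in the same order. A match describes the letters in the window and says nothing of what is bound there.

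Values are log2 expression levels after RMA, a method that corrects, normalizes and summarises the probes of an Affymetrix array. The array medians (35556 probe sets) ran from 7.30 to 7.39. The leading principal component held 38.0% of the variance, and on it control 2 (26.6) and jasplakinolide 4 (26.9) lay at one end and control 1 (-24.7) and control 3 (-22.5) at the other. Results are therefore also given without control 2 and jasplakinolide 4. Of 6 contractile smooth muscle markers (Acta2, Myh11, Tagln, Cnn1, Smtn and Lmod1), 5 rose with jasplakinolide (limma, adjusted p under 0.05). Over all genes 0.772% were called in either direction. Acta2 lay between 13.40 and 13.72 on all 8 arrays. Endothelial markers were present as well, with Cdh5 at 13.01 to 13.21. Probe sets differ in their response, so levels are not ranked between genes, and no detection calls were used. For orientation, the mean levels of 1015 olfactory receptor genes, a family specialised for the nose, ran from 3.71 at the 10th percentile to 6.43 at the 90th.

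No interferon-stimulated gene passed the test between jasplakinolide and control. None of the 36 was called higher or lower (limma, adjusted p 0.180 to 0.996), in a comparison that called 0.772% of all genes. With the replicate number as a block none was called either (lowest adjusted p 0.0982), where 1.89% of all genes were. At an unadjusted p under 0.05 there were 6 members (Irf1, Parp14, Rtp4, Psmb8, Irf9 and Oasl2), all lower, against 8.87% of all genes in either direction and 4.71% lower. With the block, 14 of the 36 members had an unadjusted p under 0.05, all lower, against 15.1% of all genes in either direction in that fit. The differences ran from -0.40 for Rtp4 to 0.12 for Mx2 on the log2 scale. The 95% intervals of all 36 lay between -0.75 and 0.61, so none reached a 2-fold difference in either direction.

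Most of the members nevertheless had a slightly lower mean with jasplakinolide. The mean was lower for 29 of 36 (80.6%), with a median log2 difference of -0.11, whereas 43.6% of all genes had a lower mean and their median was 0.01. In bulk samples fewer cells of a type and less RNA per cell cannot be told apart. The size of this shift depended on the arrays included. Without control 1 the median was -0.07, with 23 of 36 members lower, and without jasplakinolide 4 it was -0.06, with 26 lower. Without both of them it was 0.0011, with 17 of 36 lower, and the median of all genes was then 0.0028. These 2 arrays were picked after their values were seen, as the highest control and the lowest treated array of the set, so that leaving them out had to bring the groups closer. Leaving out control 2 and jasplakinolide 4 instead gave -0.07, with 29 lower. No member was called in any of these fits.

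**Figure D1:**
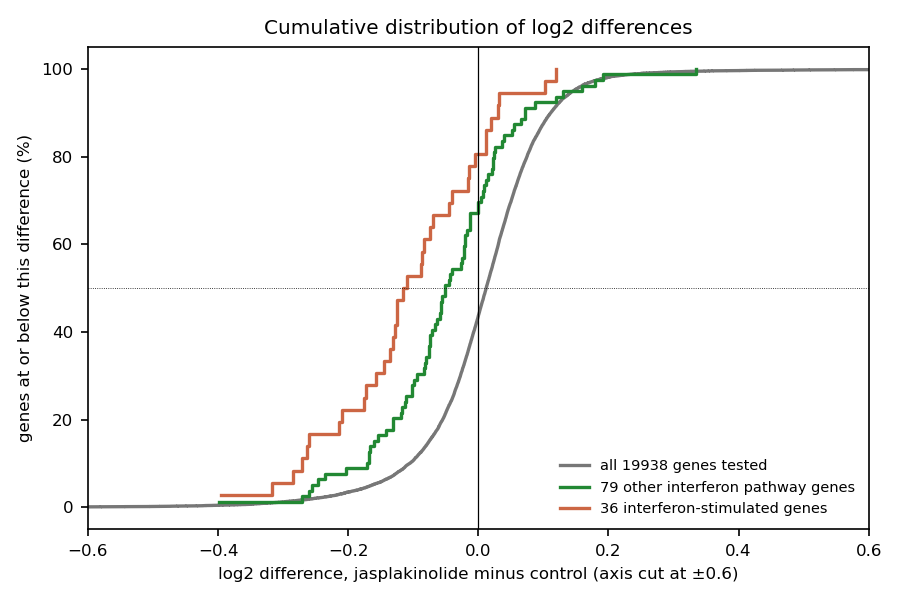
Cumulative share of genes (%) against the log2 difference, jasplakinolide minus control, for all 19938 genes, the 79 other interferon pathway genes and the 36 interferon-stimulated genes. The curve of the 36 genes lies to the left of that of all genes, with medians of -0.11 and 0.01.

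Control 1 and jasplakinolide 4 stood at opposite ends of the set. Relative to each gene's mean over the 8 arrays, the median of the 36 members was 0.22 in control 1 and -0.25 in jasplakinolide 4. In the other 6 arrays it lay between -0.05 (control 4) and 0.07 (control 3). The same median over all genes lay between -0.01 and 0.01 on every array, as the normalization of the arrays to a common distribution would leave it. Control 1 was the highest of the 8 arrays for 27 of the 36 members, against 13.5% of all genes. Jasplakinolide 4 was the lowest for 22 of 36, against 20.1% of all genes. The labels give no batch or scan information that would set these arrays apart.

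**Figure D2:**
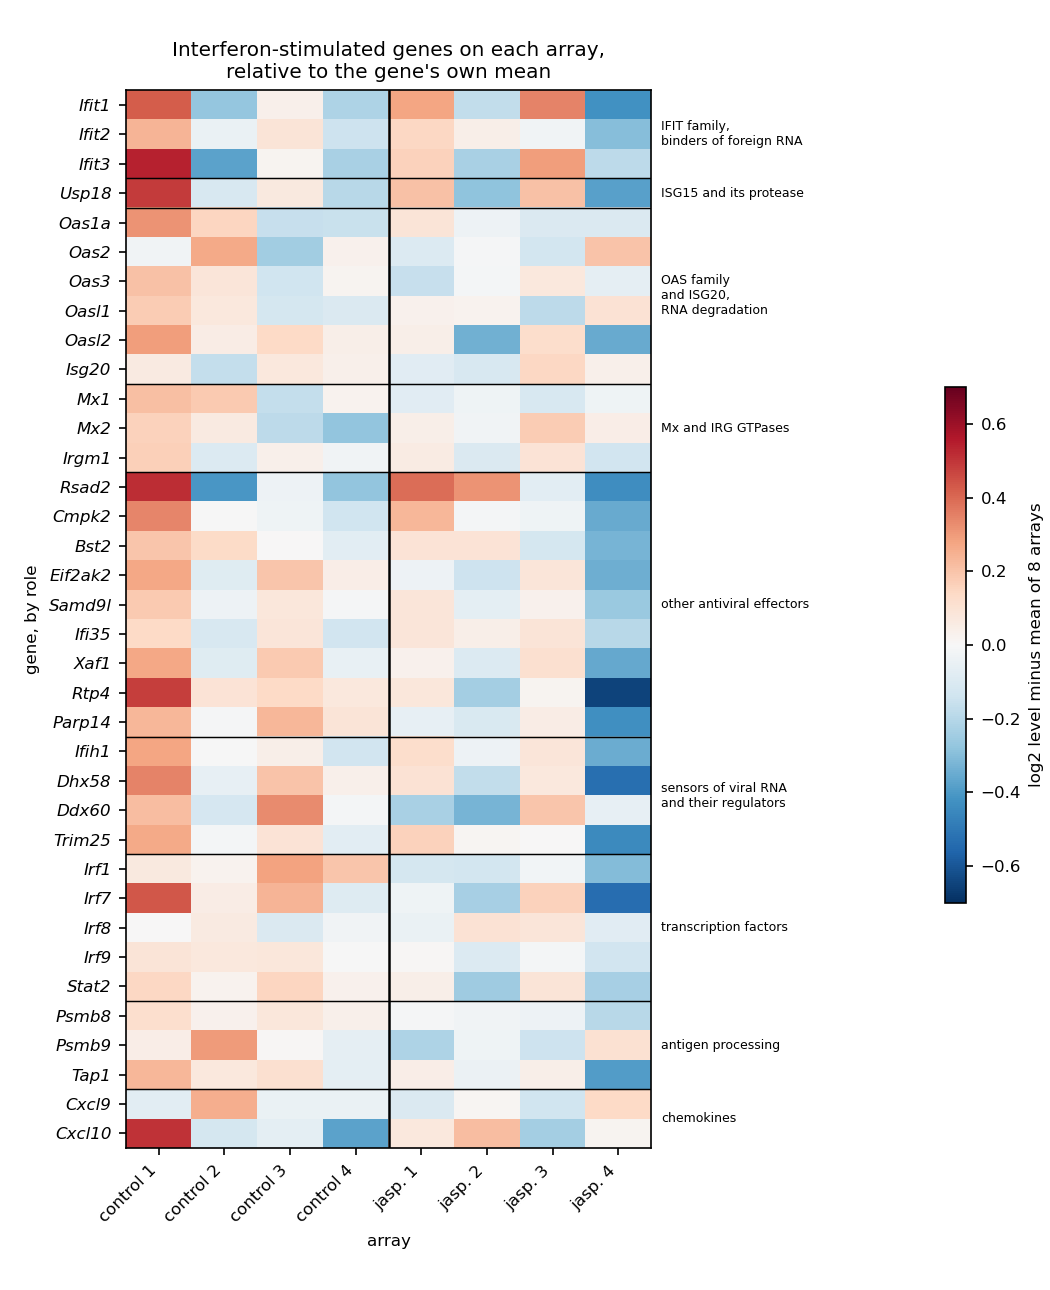
Log2 level of each of the 36 genes (rows, grouped by role) on each of the 8 arrays (columns), minus the gene's mean over the 8 arrays. The column of control 1 is red for 34 of 36 genes (median 0.22) and that of jasplakinolide 4 blue for 29 of 36 (median -0.25); the other columns have medians between -0.05 and 0.07.

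Within equal replicate numbers the members behaved differently from pair to pair. The labels do not say that arrays of equal number belong together. In pair 1 all 36 members were lower with jasplakinolide, with a median of -0.15; this pair holds control 1. In pair 4, which holds jasplakinolide 4, 27 of 36 were lower, with a median of -0.17. Pairs 2 and 3, which contain neither array, had medians of -0.07 and -0.06, with 27 and 23 of 36 members lower. Between 43.0% and 54.2% of all genes were lower in the 4 pairs. A lower level in all 4 pairs was seen for 16 of 36 members (44.4%) and 11.5% of all genes, and a higher level in all 4 pairs for 0 of 36 and 13.1% of all genes.

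**Figure D3:**
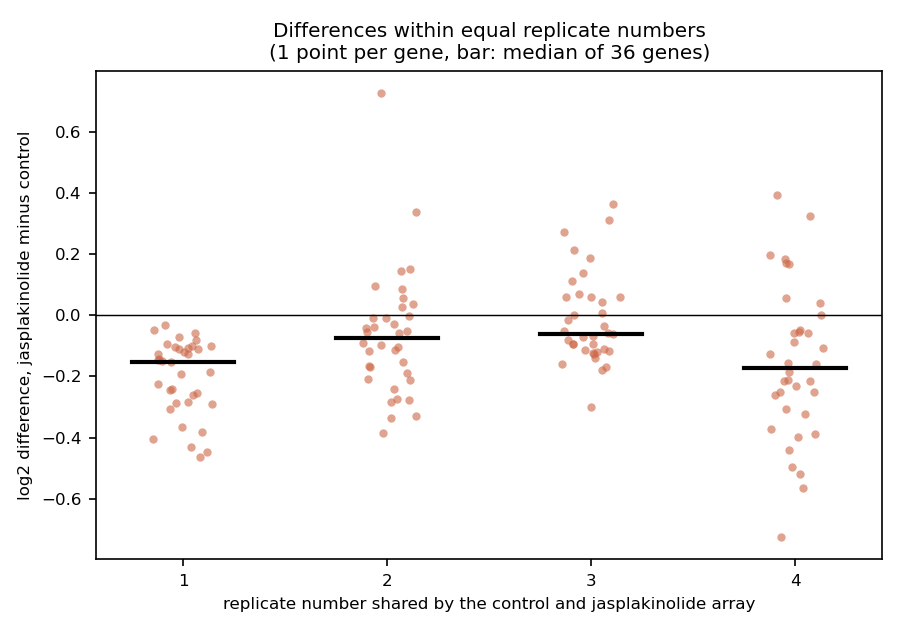
Log2 difference within each replicate number, jasplakinolide array minus control array of the same number, with 1 point for each of the 36 genes and a bar at their median. All points of pair 1 lie below 0, and the medians of the 4 pairs are -0.15, -0.07, -0.06 and -0.17.

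Among the transcription factors, Irf1 came nearest to the threshold. This factor is induced by interferon gamma and activates antigen presentation and chemokine genes. Its control arrays 1 to 4 lay at 8.36, 8.32, 8.58 and 8.49, and its jasplakinolide arrays 1 to 4 at 8.17, 8.17, 8.28 and 7.99. All treated arrays were thus below all controls. The difference was -0.29 ± 0.08 (SE; 95% interval -0.46 to -0.11), 1.22-fold lower, with an adjusted p of 0.180 and of 0.0982 with the block. Irf1 is the only member with a second probe set, and that one had a difference of 0.18 ± 0.07 (SE) in the opposite direction. Its adjusted p was 0.442 in a separate limma fit of every probe set with a single symbol, where the first probe set had 0.189. The gene's direction thus depends on the probe set chosen. The one used has the higher mean over the arrays (8.29 against 7.20). With arrays weighted by their fit, Irf1 passed (difference -0.30, limma adjusted p 0.0306). The weights ran from 0.447 (jasplakinolide 4) to 2.698 (control 4), and the share of all genes called in that fit is not given here.

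Irf7, the factor that amplifies the type I interferon response, lay at 8.92, 8.54, 8.73 and 8.40 in controls 1 to 4. With jasplakinolide it lay at 8.46, 8.25, 8.65 and 7.96. The groups overlapped, although each treated array was below its control of the same number. The difference was -0.32 ± 0.15 (SE; adjusted p 0.617, and 0.0982 with the block).

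Irf9 and Stat2 are the DNA-binding and activating subunits of the complex that reads the response element. Irf9 varied little, from 9.49 to 9.59 in controls (9.59, 9.57, 9.58 and 9.49) and from 9.37 to 9.51 with jasplakinolide (9.51, 9.40, 9.48 and 9.37). Its difference of -0.12 ± 0.05 (SE) was small but larger than its spread within groups (SD 0.04 and 0.07), and did not pass (adjusted p 0.513). Stat2 lay at 9.25, 9.14, 9.26 and 9.14 in controls and at 9.15, 8.86, 9.20 and 8.88 with jasplakinolide, a difference of -0.18 ± 0.08 (SE; adjusted p 0.615). Its treated values fell into a higher pair (arrays 1 and 3) within the control range and a lower pair (2 and 4). Irf8, a factor best known from myeloid cells, differed by 0.03 ± 0.06 (SE). Of these 5 factors, 4 were lower in all 4 pairs.

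The sensors of viral RNA and their regulators all had lower means, and none passed. Dhx58, which encodes LGP2, a helicase that tunes RNA sensing, lay at 8.23, 7.82, 8.08 and 7.92 in controls and at 7.98, 7.71, 7.96 and 7.35 with jasplakinolide. Its difference of -0.26 ± 0.14 (SE; adjusted p 0.683) was largest in pair 4 (-0.56) and between -0.24 and -0.12 in the other 3 pairs. Without jasplakinolide 4, the lowest array, it was -0.13. Ddx60, a helicase of the same response, lay at 6.43, 6.09, 6.54 and 6.20 in controls and at 5.98, 5.88, 6.41 and 6.15 with jasplakinolide (-0.21 ± 0.13, SE; adjusted p 0.742). Here treated arrays 1 and 2 were the lowest and array 4 was not. The mean of Ddx60 over the 8 arrays (6.21) lay inside the range given above for olfactory receptors. Trim25, a ubiquitin ligase that activates the sensor RIG-I, lay at 9.92, 9.65, 9.75 and 9.58 in controls and at 9.82, 9.67, 9.66 and 9.21 with jasplakinolide (-0.14 ± 0.13, SE). All of its treated arrays except array 4 lay within the control range. Ifih1, the sensor MDA5, differed by -0.09 ± 0.12 (SE).

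The IFIT proteins bind viral RNA and block its translation, and their genes showed no common shift between groups but a wide spread within them. Ifit3 lay at 10.26, 9.35, 9.75 and 9.50 in controls 1 to 4 and at 9.88, 9.50, 10.02 and 9.54 with jasplakinolide. The groups overlapped throughout, with a difference of 0.02 ± 0.19 (SE; 95% interval -0.42 to 0.45). Ifit1 lay at 9.03, 8.34, 8.64 and 8.39 in controls and at 8.88, 8.43, 8.95 and 8.18 with jasplakinolide. Its difference of 0.01 ± 0.20 (SE) was likewise far smaller than the range of 0.69 among its controls. Ifit2 differed by -0.07 ± 0.11 (SE). In all 3 genes control 1 was the highest control.

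Rsad2, which encodes viperin, an enzyme that makes a chain-terminating nucleotide, had the widest spread of the set, with a within-group SD of 0.40. Its controls lay at 8.33, 7.41, 7.78 and 7.54, and its jasplakinolide arrays at 8.21, 8.13, 7.74 and 7.38. The difference was 0.10 ± 0.23 (SE; 95% interval -0.41 to 0.61), and in pair 2 the treated array was higher by 0.73 while the other pairs differed by -0.16 to -0.03. Cmpk2, the nucleotide kinase gene that lies beside Rsad2 in the genome and is induced with it, did not share the high value of jasplakinolide 2 and differed by -0.08 ± 0.13 (SE).

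**Figure D4:**
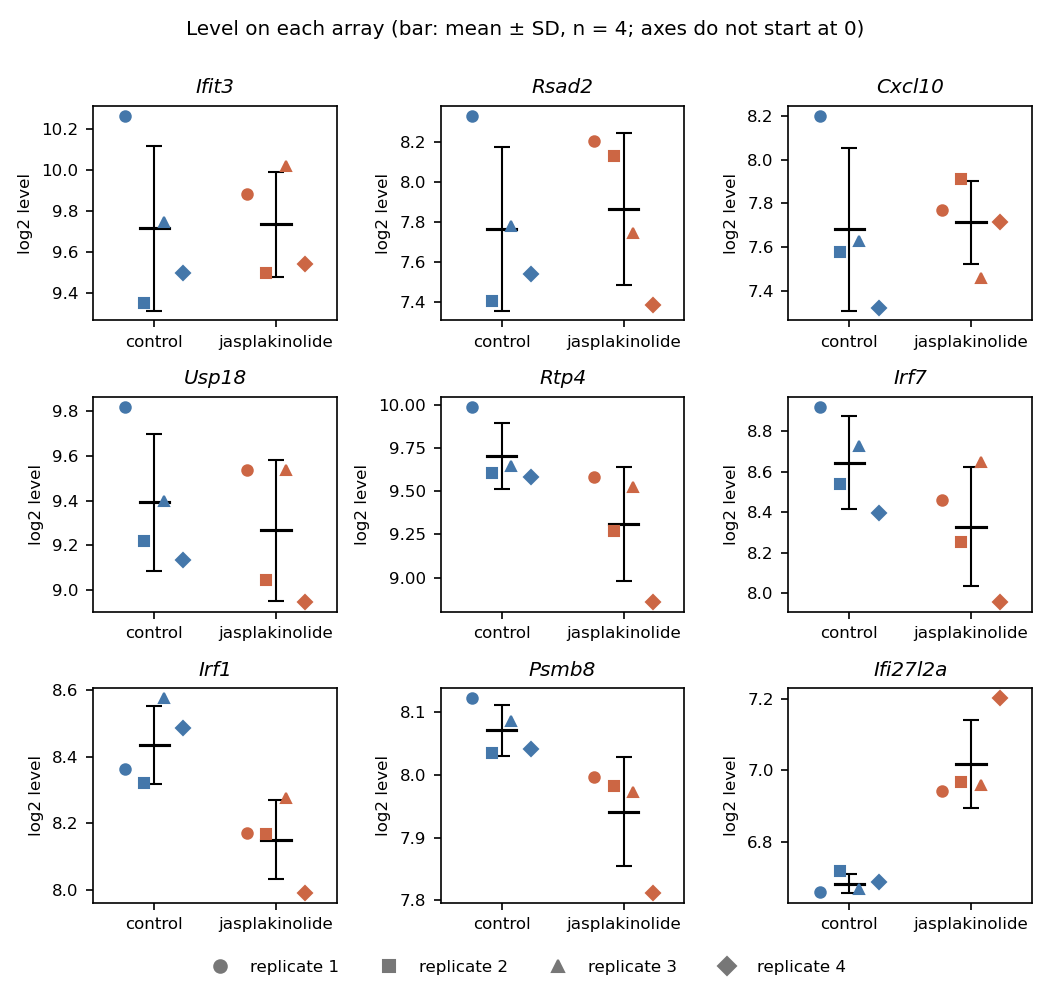
Log2 level on each array for 8 interferon-stimulated genes and for Ifi27l2a, with a symbol per replicate number and the mean ± SD of 4 arrays. In Ifit3, Rsad2, Cxcl10 and Usp18 the arrays of the groups mix and control 1 lies above the other controls; in Irf1 and Psmb8 the treated arrays lie below all controls, and in Ifi27l2a above them.

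Rtp4, a receptor transport protein with antiviral activity, had the largest difference of the set. Controls lay at 9.99, 9.61, 9.65 and 9.58, and jasplakinolide arrays at 9.59, 9.27, 9.53 and 8.86. Control 1 stood above 3 closely placed controls and jasplakinolide 4 below its group, and 1 treated array lay within the control range. The mean went from 9.71 ± 0.19 to 9.31 ± 0.33 (SD, n = 4 each), a difference of -0.40 ± 0.16 (SE), 1.32-fold lower (adjusted p 0.464, and 0.113 with the block). Without control 1 and jasplakinolide 4 it was -0.15.

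Parp14, an ADP-ribosyltransferase, lay at 9.37, 9.13, 9.37 and 9.23 in controls and at 9.08, 9.03, 9.19 and 8.71 with jasplakinolide (-0.27 ± 0.10, SE; adjusted p 0.415). A single treated array, number 3, lay above the lowest control. Eif2ak2, the kinase PKR that halts translation on double-stranded RNA, lay at 9.91, 9.55, 9.84 and 9.69 in controls and at 9.61, 9.50, 9.73 and 9.30 with jasplakinolide (-0.21 ± 0.10, SE; adjusted p 0.613). Xaf1, a pro-apoptotic partner of XIAP, lay at 8.64, 8.28, 8.54 and 8.31 in controls and at 8.39, 8.27, 8.47 and 8.002 with jasplakinolide (-0.16 ± 0.11, SE). Both were below the paired control in all 4 pairs, yet overlapped between groups. Bst2 encodes tetherin, which holds budding virions at the cell surface. It lay at 11.59, 11.53, 11.40 and 11.32 in controls and at 11.49, 11.49, 11.27 and 11.07 with jasplakinolide (-0.13 ± 0.10, SE). The 2 remaining antiviral effectors were Samd9l, with a difference of -0.11 ± 0.08, and Ifi35, with 0.01 ± 0.09 (SE).

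The OAS enzymes make 2-5A, the activator of RNase L, and Isg20 is an RNA exonuclease. All 6 measured genes of this group had means at or below control, with differences of -0.0047 (Isg20) to -0.26 (Oasl2). Oasl2 lay at 10.15, 9.91, 10.00 and 9.90 in controls and at 9.90, 9.52, 9.98 and 9.50 with jasplakinolide. Treated arrays 2 and 4 were low, array 3 was within the control range and array 1 at its lower edge (-0.26 ± 0.12, SE; adjusted p 0.552). Oas1a, Oas2, Oas3 and Oasl1 differed by -0.09 to -0.01, and for each the controls alone spanned a wider range.

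Usp18, the protease that removes ISG15 from proteins and dampens the type I receptor, lay at 9.82, 9.22, 9.40 and 9.13 in controls and at 9.54, 9.05, 9.54 and 8.95 with jasplakinolide. Its difference was -0.13 ± 0.18 (SE), and without control 1 it was 0.02. The GTPase gene Irgm1, which acts in autophagy and against intracellular bacteria, was steady at 11.17, 10.90, 11.04 and 10.98 in controls and 11.06, 10.90, 11.10 and 10.87 with jasplakinolide (-0.04 ± 0.07, SE). The Mx GTPases block incoming viruses, and common laboratory strains such as C57BL/6 carry a defective Mx1 allele. Mx1 lay at 4.78 to 5.15 and Mx2 at 5.33 to 5.79 over all 8 arrays, inside the range given above for olfactory receptors. Their differences were -0.12 ± 0.08 and 0.12 ± 0.10 (SE), the latter being the highest of the set.

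The antigen processing genes encode 2 subunits of the immunoproteasome and a peptide transporter, and all 3 had lower means. Psmb8 lay at 8.12, 8.04, 8.09 and 8.04 in controls and at 7.998, 7.98, 7.97 and 7.81 with jasplakinolide, with no overlap. The difference was -0.13 ± 0.05 (SE; adjusted p 0.493), and it was -0.05 to -0.23 in the 4 pairs. Psmb8 and Irf1 were the 2 of 36 members (both lower) whose groups did not overlap, against 3.29% of all genes lower and 6.91% in either direction. Tap1 lay at 8.69, 8.53, 8.57 and 8.39 in controls and at 8.50, 8.42, 8.50 and 8.06 with jasplakinolide (-0.17 ± 0.10, SE). Psmb9 lay at 8.31, 8.56, 8.27 and 8.20 in controls and at 8.05, 8.23, 8.12 and 8.37 with jasplakinolide (-0.15 ± 0.09, SE). Psmb9 and Tap1 are divergent neighbours whose promoter windows share 275 bases, on chromosome 17. Even so their arrays ran in different orders, since jasplakinolide 4 was the lowest treated array for Tap1 and the highest for Psmb9.

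Of the chemokines that attract T cells, Cxcl10 lay at 8.20, 7.58, 7.63 and 7.32 in controls and at 7.77, 7.91, 7.46 and 7.71 with jasplakinolide (0.03 ± 0.17, SE). Control 1 was again high, and the 4 pairs differed by -0.43, 0.34, -0.17 and 0.39. Cxcl9 differed by -0.05 ± 0.09 (SE).

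**Figure D5:**
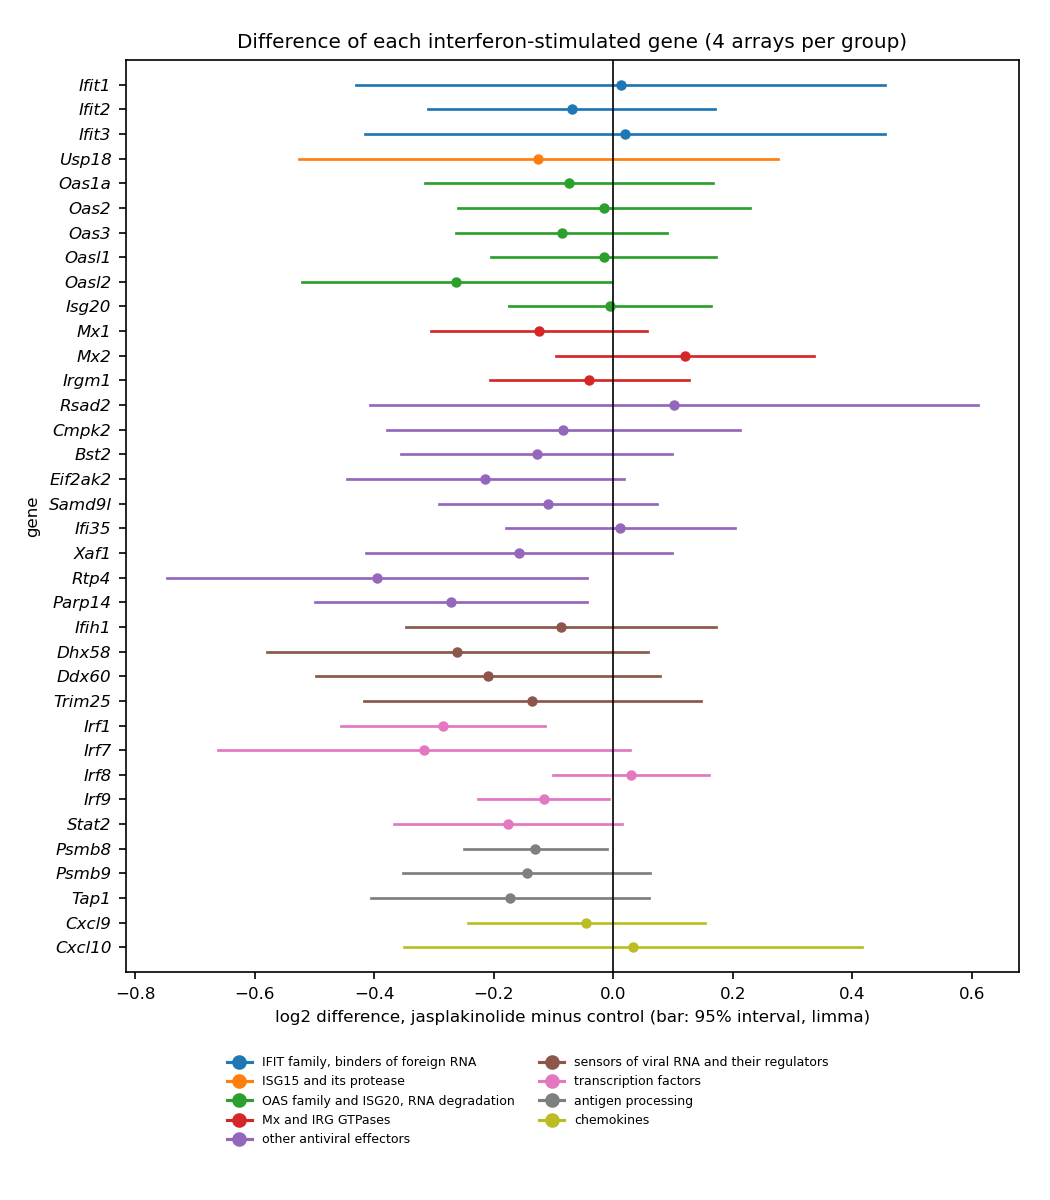
Log2 difference of each of the 36 genes, jasplakinolide minus control, with limma's 95% interval and a colour per role. The differences lie between -0.40 (Rtp4) and 0.12 (Mx2), the intervals between -0.75 and 0.61, and no gene passed the test across all genes.

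Variation between arrays of one group was larger for these genes than for genes in general. The median within-group SD of the 36 members was 0.17 on the log2 scale, against 0.10 over all genes. The 5 widest were Rsad2 (0.40), Ifit1 (0.34), Ifit3 (0.34), Usp18 (0.31) and Cxcl10 (0.30). Of these, the 4 present in the promoter table all held a response element core, as shown in the sequences above. Over the 29 measured members in the table, the 12 with a core had SDs of 0.11 to 0.40 (median 0.19) and the 17 without one 0.06 to 0.26 (median 0.14). The ranges overlap widely, and Irf7, without a match in its window, reached 0.26. The median difference with jasplakinolide was -0.08 in the 12 and -0.12 in the 17. The 9 measured members with a gamma activated site had SDs of 0.07 to 0.18 (median 0.14) and a median difference of -0.07. Bst2, Eif2ak2 and Oas1a are among both the 9 and the 12. For 30 of the 36 members the range among the 4 controls exceeded the difference between group means, against 91.5% of all genes.

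The other genes of the pathway were taken from a list of 88, of which 79 were measured. None passed the test (limma), which called 0.772% of all genes. At an unadjusted p under 0.05 there were 9 (3 higher and 6 lower), against 8.87% of all genes in either direction and 4.71% lower. With the replicate block 1 rose, where 1.89% of all genes were called in either direction. The median difference of the pathway genes was -0.05, with 55 of 79 lower, against 0.01 and 43.6% lower over all genes. Control and treated arrays did not overlap for 5 of the 79, against 6.91% of all genes.

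Ligands showed no difference past the test. Ifnb1, the first interferon made by most infected cells, lay at 5.59, 5.81, 5.59 and 5.63 in controls and at 5.49, 5.62, 5.61 and 5.59 with jasplakinolide, within the range of the olfactory receptor genes. Il15, a cytokine that sustains NK cells, lay at 7.47, 7.15, 7.51 and 7.23 in controls and at 7.34, 7.25, 7.20 and 6.50 with jasplakinolide (-0.27 ± 0.17, SE). Jasplakinolide 4 was the lowest array, and the 4 pairs differed by -0.13, 0.10, -0.31 and -0.74. Il6 differed by -0.13 ± 0.18 (SE). The interferon receptors were steady. Ifnar1 lay between 10.70 and 10.85 on all 8 arrays, with a difference of -0.0011 ± 0.05 (SE; 95% interval -0.11 to 0.10). Ifnar2 differed by -0.06 ± 0.05, Ifngr1 by -0.06 ± 0.05 and the lambda receptor subunit Ifnlr1 by 0.12 ± 0.07 (SE).

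Il10rb, the chain shared by the receptors of interleukin 10 and interferon lambda, had the largest difference among the measured receptors. It lay at 10.99, 10.91, 10.998 and 10.96 in controls and at 11.13, 11.14, 11.18 and 11.17 with jasplakinolide. All treated arrays were above all controls, by a difference of 0.19 ± 0.04 (SE) that did not pass (adjusted p 0.0867, and 0.0653 with the block). Tyk2, a kinase bound to the type I receptor, lay at 8.63, 8.54, 8.72 and 8.48 in controls and at 8.88, 8.69, 8.86 and 8.65 with jasplakinolide. It was higher in all 4 pairs, yet the groups overlapped and the difference of 0.18 ± 0.07 (SE) did not pass (adjusted p 0.485). Stat3, the main transducer of interleukin 6, differed by -0.12 ± 0.06 (SE).

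Other IRF factors differed by -0.07 to 0.07 (Irf4 -0.07 ± 0.09 and Irf3 0.07 ± 0.05, SE). Of 15 measured genes of nucleic acid sensing none passed. The DNA sensor Aim2 lay at 9.35, 9.13, 9.14 and 9.29 in controls and at 9.12, 9.16, 8.98 and 8.84 with jasplakinolide (-0.20 ± 0.08, SE; adjusted p 0.473), with 1 treated array inside the control range. The lipopolysaccharide receptor Tlr4 differed by -0.16 ± 0.10 (SE). The negative regulators Socs3, an inhibitor of cytokine receptors, and Samhd1, which depletes nucleotides, differed by -0.12 ± 0.05 and 0.09 ± 0.05 (SE).

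Of 35 further interferon-induced genes, 27 had a lower mean. Ifi203, which encodes a nuclear DNA-binding protein, had the largest difference, at -0.40 ± 0.20 (SE; adjusted p 0.655), with 9.17 in control 1 and 7.81 in jasplakinolide 4 as the ends of its range. Ifi27l2a, a small mitochondrial protein gene strongly induced by type I interferon, went the other way. It lay at 6.66, 6.72, 6.67 and 6.69 in controls and at 6.94, 6.97, 6.96 and 7.20 with jasplakinolide. All 4 treated arrays were above the tight controls, by 0.34 ± 0.06 (SE), 1.26-fold. Its adjusted p was 0.0502, and 0.0441 with the replicate block, so that it missed the threshold in the first and rose in the second. With any 1 array left out, the difference stayed between 0.27 and 0.36 and the adjusted p between 0.0472 and 0.175. Without jasplakinolide 4, its highest array, it passed (adjusted p 0.0472), and without any other single array it did not.

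Markers of other cells were set beside these values. Over all genes 43.6% had a lower mean, and 0.772% were called without and 1.89% with the block, in either direction. The 6 endothelial markers had a mean level of 10.56 to 10.62 on the control arrays and 10.31 to 10.48 on the treated ones, and 5 of 6 were lower (2 passed with the block, none without). Leukocyte markers (Ptprc, Cd53, Laptm5 and Coro1a) had mean levels of 8.20 to 8.36 and 8.17 to 8.33, and macrophage markers 7.67 to 7.76 and 7.67 to 7.74, with none of either past the test. With the block, 1 macrophage marker was lower. T and NK cell markers lay at 5.45 to 5.67 and 5.49 to 5.70, and those of plasmacytoid dendritic cells at 6.56 to 6.93 and 6.62 to 6.96. The 4 adventitial fibroblast markers lay at 7.69 to 7.85 and 7.48 to 7.55, with all 4 lower and 1 past the test with the block. Dcn (-0.54) and Dpt (-0.46) differed most, and Pdgfra (-0.03) and Lum (-0.06) differed little. The means of Dpt (5.32) and Lum (4.69) over the 8 arrays lay in the olfactory receptor range. Most endothelial markers, and the fibroblast markers Dcn and Dpt, thus moved in the same direction as most interferon-stimulated genes. The part of endothelial cells and fibroblasts in these values was not tested.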

How the data were processed

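RNA of 8 samples was measured on Affymetrix arrays. The deposited values are log2 levels. The submitters' processing notes name Affymetrix Expression Console and RMA, as used by the authors, and their versions and the genome build were not given in the sources used here. The values ran from 2.29 to 14.17. Names came from GEO's platform annotation (21789 of 35556 had 1 symbol, 1621 several and 12146 none). Where a gene had several (999 genes), the brightest by its 8-array mean was used, leaving 19938 genes. No dim probe set was removed. The number of arrays limits the precision.

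Tests used limma 3.58.1 (lmFit and eBayes, two-sided; R 4.3.3) over all genes with Benjamini-Hochberg adjustment, at 0.05. The fit without block was run on simulated data with independent noise between arrays. Only the recovery of differences larger than those of any member was required there. The run thus does not show that differences of the members' size would be found. Errors are limma's SE for differences and SD for means; intervals are 95%. Deviations from group means correlated at 0.24 to 0.56 in all 4 same-numbered pairs (others -0.62 to 0.52), so equal numbers were treated as pairs. This rests on the data and not on the labels, and the data do not single out every pair. Control 2 correlated more with jasplakinolide 4 (0.52) than with jasplakinolide 2 (0.24). Jasplakinolide 4 in turn correlated less with control 4 (0.44) than with control 2. Results with the block and within pairs depend on this choice. Figures were drawn with matplotlib 3.10.9.

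Members and lists were chosen with earlier results of these data known. Values per array are given for the 12 members with the largest differences, for the member with the highest mean in each role and for any past the test. In the pathway list, the named genes are the 2 with the largest differences per role, any past the test, and Ifnar1, Ifnar2, Ifngr1 and Ifnb1. Ifit1, Rsad2 and Psmb8 were added after their values were seen. Alternatives were the replicate block, filters, other scalings, variance models, array weights, the mean of probe sets, a stricter threshold and leaving out arrays. Leaving out control 1 and jasplakinolide 4 together, and testing every probe set, were chosen after seeing the data.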

Additional observations from a re-analysis of the deposited data

Results flagged for a closer look

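In 8 of 108 groups of 4 arrays (54 genes), 1 array stood far from the other 3, by a gap above Dixon's 95% critical value relative to the group's whole range; chance marks about 1 in 20 groups. Jasplakinolide 4 was the array in 4 of them. It was the lowest of its group for Psmb8 (7.81, next 7.97), Ifngr1 (11.34, next 11.50) and Il15 (6.50, next 7.20), and the highest for Ifi27l2a (7.20, next 6.97). Control 1 was high for Rtp4 (9.99, next 9.65). Control 2 was low for Isg20 (9.34, next 9.54) and high for Cxcl9 (7.07, next 6.76). Jasplakinolide 3 was high for Il6 (8.75, next 8.28).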

How the results depend on the processing

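No interferon-stimulated gene was called under any alternative except array weights, which called 1 (Irf1, lower, adjusted p 0.0306); at adjusted p under 0.01 and with every probe set tested on its own the count was 0. The median log2 difference stayed below 0 in all fits but 1: it was -0.043 with array weights, -0.14 to -0.06 with any 1 array left out, and 0.0011 without control 1 and jasplakinolide 4. The members whose groups did not overlap numbered 6 after a second quantile normalization (8.86% of all genes), 5 after cyclic loess (8.79%), 1 when all probe sets of a gene were averaged (6.94%) and 2 to 5 with an array left out (8.56% to 13.1%). Of the other pathway genes, 1 (Ifi27l2a) rose with the replicate block, after median centring, with the mean of probe sets or without control 2 and jasplakinolide 4. Among the brighter 50% of genes 1 (Il10rb) rose, and 2 (both genes) rose among the brighter 75%, after cyclic loess or a second quantile normalization, and with array weights or a robust prior fitted on an intensity trend; with an array left out the count was 0 to 1 (Ifi27l2a, without jasplakinolide 4), and it was 0 without control 1 and jasplakinolide 4. The block changed no other call among the members and the other pathway genes. Of 692 differences of 37 named genes under alternatives, 648 kept their direction and side of the threshold, and 27, of 9 genes, changed sign. None of these 27 had passed the test. With 1 array left out the ranges were -0.088 to 0.21 for Cxcl10, -0.10 to 0.20 for Ifit3, -0.026 to 0.022 for Ifnar1, -0.11 to 0.0078 for Irf4, -0.080 to 0.0090 for Irgm1 and -0.22 to 0.017 for Usp18. Ifnar1 was 0.011 after median centring. With array weights Bst2 was 0.017, Trim25 0.0056, Ifnar1 0.0019 and Irf4 0.020. Without control 2 and jasplakinolide 4, Cxcl10 was -0.0028, Ifit3 -0.037 and Ifnar1 0.0085. Without control 1 and jasplakinolide 4, Bst2 was 0.0015, Irgm1 0.047, Trim25 0.056, Usp18 0.12, Xaf1 0.00072 and Ifnar1 0.020. The cause of these changes was not tested. Fits with fewer genes or arrays also differ in what they can call. The share of all genes called is given above for the main fit and the block only. Calls under the other alternatives, array weights included, have no such share beside them.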

Other observations

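Some interferon-induced genes outside the main list were named after their values were seen. Pml, the scaffold of nuclear bodies that hold several antiviral proteins, lay at 10.91, 10.78, 10.73 and 10.73 in controls and at 10.65, 10.59, 10.59 and 10.37 with jasplakinolide. All treated arrays were below all controls, a difference of -0.24 ± 0.07 (limma SE; adjusted p 0.240, and 0.0738 with the replicate block). Ly6e, a cell surface protein that limits coronavirus entry, differed by -0.17 ± 0.05 (SE; adjusted p 0.280). Beta-2 microglobulin, the light chain of class I molecules, differed by 0.0041 ± 0.04 (B2m, SE) and lay between 13.15 and 13.22 on all 8 arrays.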
